A study of Homo sapiens with 4 samples.

Results

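HOX genes of the A, B, C and D clusters were followed in SK-LMS-1 cells, a human cell line labelled uterine leiomyosarcoma, a malignant tumour of smooth muscle. The members were all rows of the count table whose symbol is HOX followed by a cluster letter and a number, which gave 39 genes among 19381 rows: 11 in HOXA, 10 in HOXB, 9 in HOXC and 9 in HOXD. Total RNA was sequenced for 2 untreated samples and 2 samples given 2-D08 at 50 µM for 48 h, all 4 of the same line in the same serum-containing medium. 2-D08 is a flavone known as an inhibitor of SUMO conjugation, the attachment of the small protein SUMO to other proteins. The labels call the controls untreated and name no vehicle, and no label tells whether the replicates were grown apart. The p-values therefore rest on library-to-library spread that may be technical. All data come from 1 cell line and 1 time point.

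HOX genes encode homeodomain transcription factors that give cells their position along the body axis. They lie in clusters in which gene order matches the order of expression: low-numbered genes act towards the head, and high-numbered genes act in the lower trunk, the limbs and the urogenital tract. Genes of the same number in different clusters are paralogs descended from a single ancestral gene and make up a paralog group. Trithorax (MLL) complexes keep HOX genes active, Polycomb complexes keep them silent, retinoic acid induces the low-numbered ones, and HOX proteins bind DNA together with TALE homeodomain partners of the PBX, MEIS and PKNOX families. Adult cells usually keep the HOX pattern of the place they came from.

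The homeobox is the stretch of 180 bases that encodes the DNA-binding homeodomain, and it was found in all 39 genes in the GENCODE 29 transcripts (build GRCh38). It is shown for 5 of the genes whose transcript level was called changed, because 3 of them belong to paralog group 13 while their transcripts moved in different directions. Capitals mark codons 48 to 53, part of the helix that contacts the major groove of DNA. The paralog group 13 genes come first, then HOXB9 and HOXC4.
HOXA13, chr7:27198222-27198401, minus strand: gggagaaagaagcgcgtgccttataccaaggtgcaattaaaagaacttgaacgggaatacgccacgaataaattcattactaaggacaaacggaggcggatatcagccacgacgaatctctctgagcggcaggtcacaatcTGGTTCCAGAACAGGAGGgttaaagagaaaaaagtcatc
HOXB13, chr17:48726820-48726999, minus strand: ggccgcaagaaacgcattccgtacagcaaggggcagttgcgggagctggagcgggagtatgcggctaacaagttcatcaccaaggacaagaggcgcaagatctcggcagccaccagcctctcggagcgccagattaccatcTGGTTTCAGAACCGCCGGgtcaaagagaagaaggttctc
HOXD13, chr2:176094524-176094703, plus strand: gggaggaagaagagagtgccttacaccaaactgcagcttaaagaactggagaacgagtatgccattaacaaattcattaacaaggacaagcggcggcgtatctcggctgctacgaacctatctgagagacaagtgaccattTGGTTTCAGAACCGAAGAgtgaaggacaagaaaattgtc
HOXB9, chr17:48622921-48623100, minus strand: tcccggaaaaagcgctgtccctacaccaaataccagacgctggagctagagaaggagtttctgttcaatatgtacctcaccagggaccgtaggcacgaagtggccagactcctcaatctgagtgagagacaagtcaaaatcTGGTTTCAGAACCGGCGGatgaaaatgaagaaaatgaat
HOXC4, chr12:54054876-54055055, plus strand: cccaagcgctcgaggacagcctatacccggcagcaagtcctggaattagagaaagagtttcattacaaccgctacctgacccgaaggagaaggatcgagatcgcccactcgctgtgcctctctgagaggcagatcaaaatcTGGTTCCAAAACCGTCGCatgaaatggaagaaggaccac
Within group 13, the homeobox of HOXA13 matched that of HOXB13 at 69.4% of bases and that of HOXD13 at 73.3%, and HOXB13 and HOXD13 matched at 70.0%. These values lie at the low end for genes of the same paralog group. Over the 42 pairs of the same paralog group, identity ran from 69.4% to 90.6% with a median of 81.7%, and over the 699 other pairs from 47.8% to 91.1% with a median of 60.6%. The longest stretch of identical homeobox bases between any pair was 51 bases, while the 3 group 13 pairs among the sequences shown shared at most 14 bases in a row. A read that lies within a shared stretch cannot be assigned to 1 gene by its own bases, and how the counting treated such reads is not given in the sources used here.

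A promoter entry (RefSeq, GRCh38.p14) was matched for 20 of the 39 genes, in 27 entries. The 250 bases before the start are shown for HOXA9 and HOXD13, the genes called higher after 2-D08. Capitals mark matches on either strand to TATAAA (the sequence of a TATA box), CCAAT (bound by NF-Y) and GGGCGG (bound by SP1-like factors). A match is to the bases alone, whatever its distance from the start, so a TATAAA match need not be a TATA box. Matches that overlap run together.
HOXA9, chr7:27165538-27165787, minus strand: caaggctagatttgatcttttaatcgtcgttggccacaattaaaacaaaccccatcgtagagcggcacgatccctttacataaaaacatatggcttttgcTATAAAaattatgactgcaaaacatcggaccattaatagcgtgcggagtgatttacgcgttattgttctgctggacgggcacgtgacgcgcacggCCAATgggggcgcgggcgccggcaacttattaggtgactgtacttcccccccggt
HOXD13, chr2:176092471-176092720, plus strand: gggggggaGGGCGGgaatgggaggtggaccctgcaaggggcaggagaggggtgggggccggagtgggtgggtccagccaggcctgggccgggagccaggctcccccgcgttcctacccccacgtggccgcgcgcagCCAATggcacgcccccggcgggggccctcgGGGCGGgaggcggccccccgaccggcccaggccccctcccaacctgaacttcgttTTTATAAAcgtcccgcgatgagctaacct
HOXA9 held TATAAA from -150 to -145 and CCAAT from -55 to -51, counted from the start. HOXD13 held TATAAA on both strands between -29 and -22, CCAAT from -114 to -110, and GGGCGG at 2 places. TATAAA was present in 10.7% of all 35116 entries and in 5 of the 27 HOX entries, CCAAT in 32.0% and in 18, and GGGCGG in 42.6% and in 13. The HOX entries are not independent, since HOXA3 and HOXA10 have more than a single entry and HOXC4 and HOXC5 share the same window. Of the HOXB cluster only HOXB1 was matched. A match to TGATTNAT, a HOX and PBX composite motif, was present in 2.5% of all entries and in 2 HOX entries, HOXA2 and HOXD11, and was not found in the windows shown. The median number of CpG dinucleotides in these 250 bases was 19 over the HOX entries and 11 over all entries.

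The libraries held 29586475 and 16628710 counts (untreated replicates 1 and 2) and 14796702 and 31300635 counts (2-D08 replicates 1 and 2), of which 6053 to 12780 fell on HOX genes. In untreated replicate 1 and 2-D08 replicate 2, 88.6% and 87.7% of the genes counted in all libraries had an even count, against 49.6% and 50.0% in the other two, so these libraries, 1 in each group, stand apart. Halving their counts left the same 6 HOX genes called. Over all genes tested, 33.9% were called changed, 17.1% higher and 16.9% lower, against which the marker counts are to be read. Smooth muscle markers summed to 1169 and 1186 CPM (counts scaled to library size) in untreated cells and 800 and 851 after 2-D08. Most of this came from CALD1 (641 and 680 CPM untreated), MYLK (334 and 325) and SMTN (120 and 110). Of 10 tested, 1 was higher (SMTN) and 5 were lower (TAGLN, CNN1, CALD1, MYL9 and MYLK). ACTA2 had 6.64 and 4.36 CPM untreated and 3.06 and 4.34 CPM after 2-D08, and was not called. MYH11 (0.47 to 0.78 CPM), LMOD1 (0.32 to 1.48) and ACTG2 (0.39 to 1.39) had few counts. DES, the muscle filament gene, was at 0 in all libraries and MYOCD, the smooth muscle master regulator, had 0 to 2 counts. Epithelial markers summed to 343 and 304 CPM, then 278 and 231, with 0 of 6 tested higher and 3 lower (KRT7, KRT8 and KRT19). Most of this sum came from KRT18 (217 and 194 CPM untreated, 210 and 182 after 2-D08), which was not called. EPCAM had 0.48 to 0.81 CPM, and CDH1 had 0, 0, 5 and 12 counts. Immune markers summed to 62.6 and 67.0, then 98.9 and 99.8 CPM, nearly all from CD68, with 2 of 3 tested higher (CD68 and LCP1), while PTPRC had 4 to 16 counts. Endothelial markers summed to at most 2.07 CPM, with 1 of 2 tested higher (PECAM1). The part of these marker differences in the HOX results was not tested. In RNA from whole cultures, fewer cells expressing a gene and less RNA per cell cannot be told apart.

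SK-LMS-1 cells carried transcripts of all 4 HOX clusters, with most of the signal in the HOXA cluster. Levels between genes are compared in the deposited TPM (a transcript's share of its library, corrected for gene length). HOXA9 was the most abundant HOX transcript, at 56.5 and 67.6 TPM in the untreated libraries and 83.9 and 88.0 TPM after 2-D08. HOXA10 followed at 30.0 and 28.6 TPM, then 25.9 and 23.9 TPM. Mean untreated levels of 10 TPM or more were found for 12 HOX genes, 29 had 1 TPM or more, and 10 had less; the median over all genes tested was 17.4 TPM. The HOXA genes summed to 165 and 171 TPM untreated and 175 and 174 TPM after 2-D08, the HOXB genes to 86.0 and 86.4, then 77.3 and 77.7, the HOXC genes to 30.2 and 33.2, then 28.0 and 28.96, and the HOXD genes to 34.0 and 35.9, then 36.4 and 33.3. The total over the 39 genes was 315, 327, 316 and 314 TPM, so that the summed HOX level of the groups overlapped. These sums are on the deposited scale, whose rows summed to 761770, 745964, 741705 and 716934 in the same order.

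**Figure D1:**
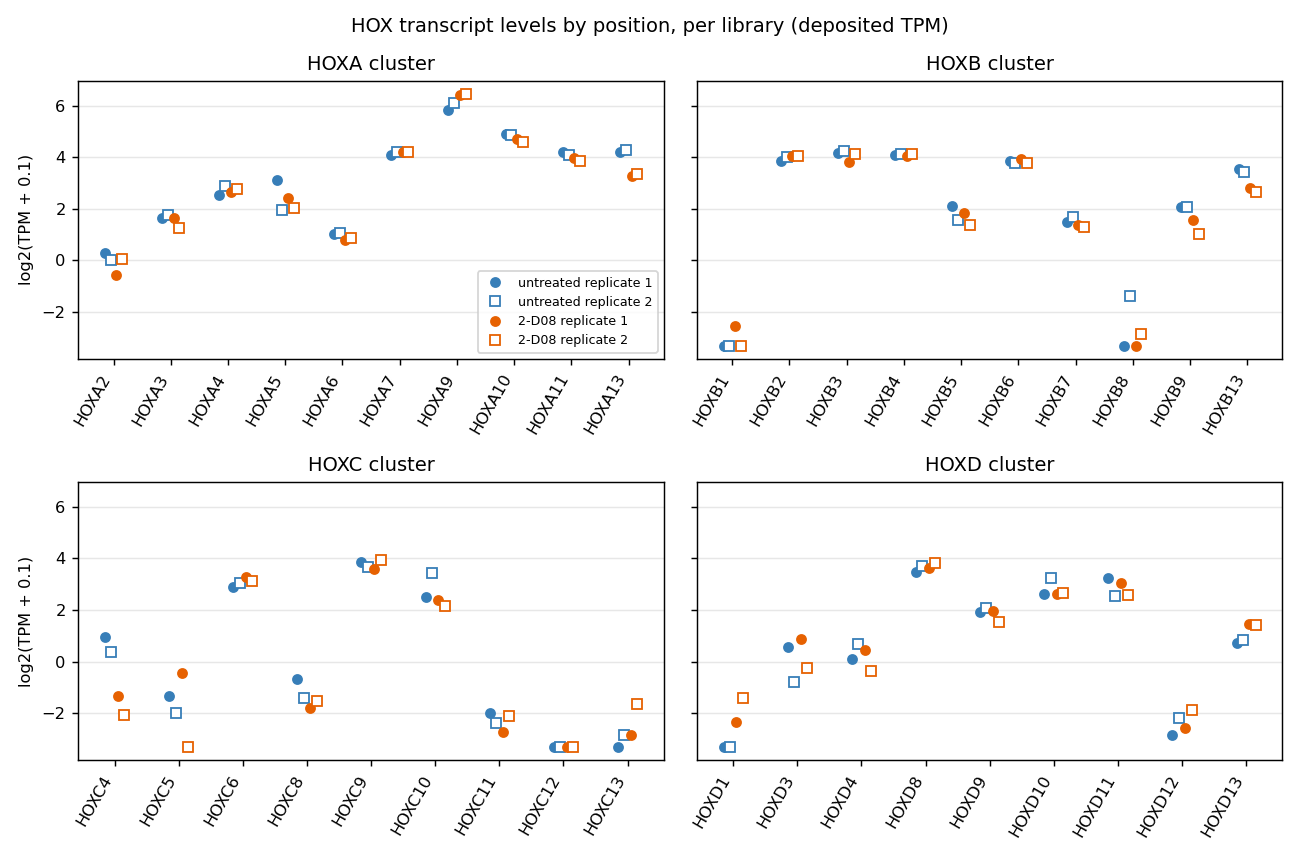
Levels of HOX genes as log2(TPM + 0.1), one panel per cluster, genes ordered from the low-numbered to the high-numbered end; blue marks untreated and orange 2-D08 libraries, filled circles replicate 1 and open squares replicate 2. HOXA9 sits highest in every library, and most genes show the 4 libraries close together, with HOXC4, HOXA13 and HOXB13 among those whose orange symbols lie below the blue.

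After 2-D08, 2 HOX genes were higher (HOXA9 and HOXD13) and 4 were lower (HOXA13, HOXB9, HOXB13 and HOXC4). These are 6 of the 31 HOX genes with enough counts to be tested (19.4%), in a fit over all 12906 genes tested in which 33.9% were called changed, 17.1% higher and 16.9% lower (edgeR quasi-likelihood test, Benjamini-Hochberg adjusted p under 0.05). The share of HOX genes called was thus below that over all genes. HOXC4 was the only HOX gene called with a change of 2-fold or more, against 6.31% of all genes. The median log2 fold change was -0.15 over the 31 HOX genes and -0.00 over all genes tested; 12 HOX values were above 0 and 19 below. HOXA13 and HOXB13 were called lower in all 14 alternative analyses, and HOXC4 in the 13 that tested it. Without untreated replicate 1, 0 HOX genes were called higher and 3 lower, and without 2-D08 replicate 1 there were 3 higher and 6 lower, as the number of all genes called moved to 1866 and 6077.

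From the low-numbered to the high-numbered end, coordinates rise in HOXA and HOXB and fall in HOXC and HOXD. For each cluster the called genes are described first, so the genes are not all named in order of position. In the HOXA cluster (chromosome 7, build GRCh38), HOXA9 rose and HOXA13, at the far end, fell, while the other 9 genes were not called. All 11 genes were tested, and their median log2 fold change was -0.00. HOXA9 (chr7:27162435-27175180, minus strand), a factor of blood stem cells and of the female reproductive tract, had 53.6 and 64.0 CPM in untreated and 79.7 and 90.1 CPM in 2-D08 libraries, with both treated libraries above both untreated ones. It was 1.45-fold higher (log2 fold change 0.54 ± 0.11 SE, edgeR adjusted p = 0.0021). This call was lost without untreated replicate 1 (log2 fold change 0.41, adjusted p = 0.0913) and on both log2 TPM scales, in a range of adjusted p from 2.51e-10 to 0.0913 over the alternatives. Of its exon bases, 15.9% are shared with genes on the same strand, among them a read-through gene, and 13.9% with the antisense gene HOXA10-AS. HOXA13 (chr7:27193503-27200106, minus strand), which patterns the digits and the urogenital tract, had 61.6 and 68.2 CPM in untreated and 34.7 and 39.6 CPM in 2-D08 libraries, which do not overlap. It was 1.74-fold lower (log2 fold change -0.80 ± 0.11 SE, adjusted p = 0.00013), and 1.7% of its exon bases lie opposite the noncoding gene HOTTIP.

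HOXA10, which patterns the uterus, had 34.6 and 35.1 CPM untreated and 32.0 and 28.6 CPM after 2-D08, which gave -0.21 ± 0.12 SE on the log2 scale (edgeR, adjusted p = 0.188). HOXA11, its neighbour with a related role in the uterus, had a value of -0.24 ± 0.12 (adjusted p = 0.141). In the fit without 2-D08 replicate 1 both passed the threshold (HOXA10 at -0.29 and HOXA11 at -0.31). From HOXA2 to HOXA7 the log2 fold changes were -0.25 for HOXA2, 0.00 to within rounding for HOXA3, 0.21 for HOXA4, 0.16 for HOXA5, -0.15 for HOXA6 and 0.16 for HOXA7. Reads of HOXA7 are hard to separate, since 62.5% of its exon bases lie opposite the antisense gene HOXA-AS3. The same limit holds for HOXA6 (39.3%) and HOXA11 (31.1%), each opposite an antisense gene. The strand setting of the counting is not given in the sources used here. By TPM the order along the cluster was low at HOXA2 (1.12 and 0.91 TPM untreated), near 17 to 18 TPM from HOXA7 (17.0 and 18.5), highest at HOXA9, and again 17 to 19 TPM at HOXA11 (18.4 and 16.8) and HOXA13 (18.2 and 19.2). HOXA7, HOXA11 and HOXA13 did not differ in untreated level beyond their spread.

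In the HOXB cluster (chr17:48528526-48729178), the 2 genes at the high-numbered end, HOXB9 and HOXB13, fell, and none of the 8 tested genes was called higher. The median log2 fold change was -0.22. HOXB13 (chr17:48724763-48729178, minus strand), a gene of the hindgut and prostate, had 24.5 and 23.7 CPM in untreated and 15.02 and 14.3 CPM in 2-D08 libraries. The groups do not overlap, and the level was 1.65-fold lower (log2 fold change -0.72 ± 0.14 SE, edgeR adjusted p = 0.00115). HOXB9 (chr17:48621159-48626356, minus strand), a trunk patterning gene, had 7.28 and 7.63 CPM untreated and 5.25 and 3.76 CPM after 2-D08, with 2-D08 replicate 2 the lowest. It was 1.69-fold lower (log2 fold change -0.76 ± 0.22 SE, adjusted p = 0.0165). With untreated replicate 1 left out HOXB9 missed the threshold (-0.78, adjusted p = 0.0747), likewise with untreated replicate 2 (-0.72, adjusted p = 0.0757) or 2-D08 replicate 2 (-0.51, adjusted p = 0.0968) left out, with DESeq2 and on both log2 TPM scales, in a range from 0.000154 to 0.104. Neither gene shares exon bases with another annotated gene.

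HOXB3 and HOXB4, genes of the hindbrain that also act in blood stem cells, were the most abundant of the cluster by TPM (17.7 and 18.6 TPM untreated for HOXB3, 17.1 and 17.2 TPM for HOXB4). HOXB3 had 37.4 and 39.1 CPM untreated and 30.7 and 35.4 CPM after 2-D08, which gave -0.20 ± 0.12 SE on the log2 scale (edgeR, adjusted p = 0.198) and passed the threshold without 2-D08 replicate 2 (-0.32). HOXB4 had 23.0 and 24.0, then 22.9 and 25.2 CPM, with overlapping groups and a log2 fold change of 0.04 ± 0.13 (adjusted p = 0.841). The other tested genes were not called, at 0.19 for HOXB2, -0.23 for HOXB5, -0.04 for HOXB6 and -0.50 for HOXB7. HOXB1 had 1 count in all, in 2-D08 replicate 1, and HOXB8 had 0 and 3 counts untreated and 0 and 2 after 2-D08, so neither was tested. The cluster thus held a gap at HOXB8 between HOXB7 (2.72 and 3.10 TPM untreated) and HOXB9 (4.07 and 4.13 TPM).

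In the HOXC cluster (chr12:53938765-54056030), HOXC4 fell and none of the 5 tested genes was called higher. HOXC4 (chr12:54016931-54056030, plus strand), an early trunk gene also active in B cells, had 45 and 21 counts in untreated and 5 and 5 counts in 2-D08 libraries, that is 1.52 and 1.27 CPM against 0.33 and 0.16 CPM. The groups do not overlap, and the fitted level was 6.19-fold lower (log2 fold change -2.63 ± 0.55 SE, edgeR adjusted p = 0.00239). Over the alternatives the log2 fold change ran from -3.08 (without 2-D08 replicate 1) to -1.03 on the log2(TPM + 1) scale, where the pseudocount is of the size of the gene's level. Of its exon bases, 17.8% are shared with HOXC5 and HOXC6 on the same strand. Next to it, HOXC5 had 9 and 3 counts untreated and 11 and 0 after 2-D08, so its 2-D08 reads came from 1 library.

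HOXC9 and HOXC6, trunk genes, had the highest mean TPM of this cluster over the 4 libraries (14.5 and 12.5 TPM untreated for HOXC9, 7.41 and 8.25 TPM for HOXC6). In the untreated libraries alone HOXC10 had a mean of 8.16 TPM (5.55 and 10.77) and HOXC6 7.83 TPM, a difference within the spread of the libraries. HOXC9 had 6.74 and 6.11 CPM untreated and 7.18 and 7.78 CPM after 2-D08, which gave 0.22 ± 0.19 SE on the log2 scale (edgeR, adjusted p = 0.403). HOXC6 had 9.03 and 11.50, then 12.96 and 12.2 CPM, a value of 0.30 ± 0.18 (edgeR adjusted p = 0.204). It shares 15.7% of its exon bases with HOXC4, HOXC5 and HOXC9 on the same strand. HOXC10, a lumbar patterning gene, had 4.65 and 5.75 CPM untreated and 3.32 and 3.50 CPM after 2-D08; at -0.59 ± 0.23 it missed the threshold (adjusted p = 0.0654) while its unadjusted p was 0.0243. HOXC8 was at -0.80 with 0.33 to 0.88 CPM, and was not called. HOXC11 had 9 pooled counts untreated and 7 after 2-D08, and HOXC12 had 0 counts in all libraries. HOXC13 had 0 and 1 counts untreated and 1 and 12 after 2-D08; the 12 counts lie in 1 library, where most counts are even.

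In the HOXD cluster (chr2:176092891-176190907), HOXD13, at the high-numbered end, rose and the other 6 tested genes were not called. HOXD13 (chr2:176092891-176095938, plus strand), which patterns the digits and the genital bud, had 76 and 48 counts untreated and 69 and 144 counts after 2-D08, that is 2.56 and 2.91 CPM against 4.58 and 4.67 CPM. Both treated libraries lay above both untreated ones, and the level was 1.71-fold higher (log2 fold change 0.77 ± 0.24 SE, edgeR adjusted p = 0.0251). It missed the threshold when untreated replicate 1 (0.67, adjusted p = 0.233), untreated replicate 2 (0.85, adjusted p = 0.0797) or 2-D08 replicate 2 (0.75, adjusted p = 0.0591) was left out, with DESeq2 and on both log2 TPM scales, in a range from 0.00871 to 0.233. No exon bases of HOXD13 are shared with another annotated gene.

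HOXD8 and HOXD11, a trunk gene and a forearm and kidney patterning gene, had the highest mean TPM of this cluster over the 4 libraries (10.9 and 12.9 TPM untreated for HOXD8, 9.38 and 5.77 TPM for HOXD11). The untreated means of HOXD10 (7.67 TPM) and HOXD11 (7.58 TPM) lay within the spread of the libraries. HOXD8 had 10.9 and 13.4 CPM untreated and 13.3 and 15.7 CPM after 2-D08, which gave 0.28 ± 0.17 SE on the log2 scale (edgeR, adjusted p = 0.225), past the threshold without 2-D08 replicate 1 (0.39). HOXD11 had 7.62 and 5.02, then 7.04 and 5.22 CPM, with overlapping groups and a value of -0.09 ± 0.24 (adjusted p = 0.791). The remaining tested genes were at 0.66 (HOXD3), -0.32 (HOXD4), -0.21 (HOXD9) and -0.35 (HOXD10). HOXD3 and HOXD4 share 62.2% and 80.5% of their exon bases with a read-through gene on the same strand, so their counts are uncertain. HOXD11 shares 21.4% of its exon bases with HOXD10 on the same strand. HOXD1 had 0 and 0 counts untreated and 2 and 12 after 2-D08, and HOXD12 had 2 and 2, then 2 and 10 counts. Most of these reads lie in 2-D08 replicate 2, where most counts are even, so no fold change is given.

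**Figure D2:**
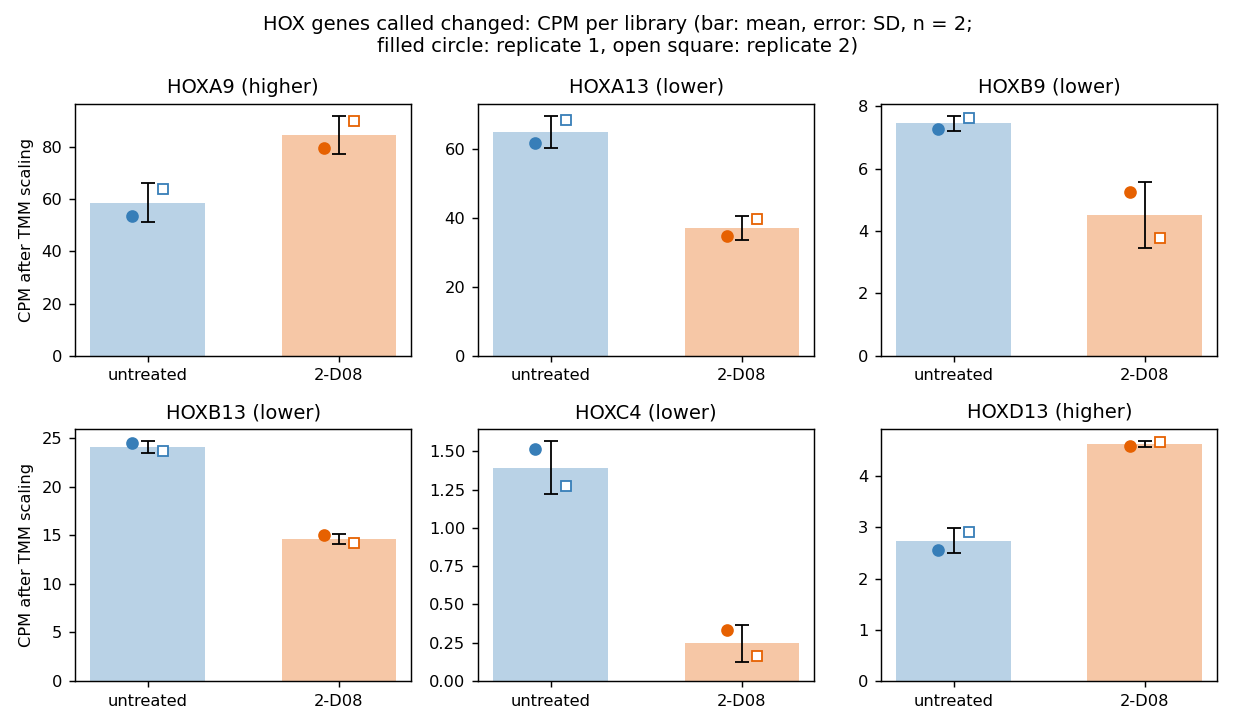
CPM after TMM scaling of the 6 HOX genes called changed, each on its own axis starting at 0; bars give the mean, error bars the SD (n = 2), filled circles replicate 1 and open squares replicate 2. In each gene both 2-D08 libraries lie on the same side of both untreated libraries, above them for HOXA9 and HOXD13 and below them for the other 4; over all HOX genes tested the groups did not overlap in 21 of 31, and over all genes tested in 67.5%.

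Read by paralog group, the changes were opposed within groups 9 and 13 in the main fit. The calls of HOXA9, HOXB9 and HOXD13, on which this rests, were lost on both log2 TPM scales and without untreated replicate 1. Their signs held in all alternatives that tested them. In group 13, HOXA13 and HOXB13 fell while HOXD13 rose, and HOXC13 was not tested; the sum over the group was 31.3 and 31.7 TPM untreated and 19.2 and 19.2 TPM after 2-D08. In group 9, HOXA9 rose and HOXB9 fell, with HOXC9 and HOXD9 not called, and the sum was 78.8 and 88.3 TPM untreated and 102 and 108 TPM after 2-D08. All 3 tested genes of group 10 had values below 0 (HOXA10 -0.21, HOXC10 -0.59, HOXD10 -0.35), of which none was called, and their sum was 41.6 and 48.7, then 37.1 and 34.5 TPM. Group 4 held the other called gene, HOXC4, beside HOXA4 (0.21), HOXB4 (0.04) and HOXD4 (-0.32). In groups 9 to 13, 5 of 12 tested genes were called (41.7%), and in groups 1 to 8, 1 of 19 (5.26%), beside 33.9% over all genes; this division was made after the values were seen and carries no test. The sums were 180 and 191 TPM, then 183 and 182 TPM, for groups 9 to 13, and 135 and 135 TPM, then 133 and 132 TPM, for groups 1 to 8.

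Among the TALE partners of HOX proteins, PBX2 and MEIS1 fell, and none of the 7 tested of 8 rose. PBX2 had 85.4 and 91.7 CPM untreated and 61.5 and 57.6 CPM after 2-D08 (log2 fold change -0.57 ± 0.10 SE). MEIS1, which binds DNA with HOXA9 and PBX proteins, had 20.2 and 21.9, then 12.03 and 10.99 CPM (-0.87 ± 0.15). In both genes the treated libraries lay below both untreated ones. PBX2 was called in all 14 alternatives, whereas MEIS1 was lost on both log2 TPM scales, where its value came as close to 0 as -0.46. The other tested partners were not called, at 0.16 for PBX3, 0.83 for PBX4, -0.24 for MEIS2, 0.26 for MEIS3 and 0.22 for PKNOX1, and PKNOX2 had 0 counts. The 2 called of 7 are 28.6%, near the 33.9% over all genes.

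Of the 17 trithorax and MLL complex genes, 4 were higher and 1 lower (29.4% called, against 33.9% over all genes). DOT1L, the H3K79 methyltransferase that works with MLL fusion partners, had 32.6 and 31.1 CPM untreated and 47.2 and 43.9 CPM after 2-D08 (log2 fold change 0.51 ± 0.11 SE). RBBP5 (0.44 ± 0.11) and WDR5 (0.27 ± 0.09), core subunits of the H3K4 methyltransferase complexes, and the methyltransferase KMT2D (0.36 ± 0.09) were also higher. MLLT3, a subunit of the super elongation complex and the 1 lower gene, was at -0.32 and is named after its value was seen. The median of the list was 0.02. All 4 higher calls were lost on both log2 TPM scales and without untreated replicate 2, and those of KMT2D, RBBP5 and WDR5 also without untreated replicate 1; that of WDR5 was lost with DESeq2 too. Without untreated replicate 2 the values were 0.48 for DOT1L, 0.46 for RBBP5, 0.29 for WDR5 and 0.29 for KMT2D; without untreated replicate 1 they were 0.42, 0.24 and 0.42 for the last 3.

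Of the 24 Polycomb genes, 7 were higher and 4 lower (45.8% called, against 33.9% over all genes), with a median of -0.02. The calls included EED, a core subunit of the H3K27 methyltransferase complex PRC2, at 24.7 and 25.5 CPM untreated and 44.2 and 44.7 CPM after 2-D08 (0.82 ± 0.11 SE, called in all 14 alternatives), and SUZ12, another core subunit (0.49 ± 0.10). PHF19, an accessory subunit that recruits PRC2, was lower at 83.1 and 81.6, then 55.5 and 46.6 CPM (-0.70 ± 0.11), as was CBX7, a reader of the H3K27 mark (-1.04 ± 0.24). The other lower genes, EZH1 (-0.52) and PHC1 (-0.49), are named after their values were seen. SUZ12 and CBX7 lost their calls without untreated replicate 1 (log2 fold change 0.46 for SUZ12 and -0.63 for CBX7), and SUZ12, PHF19 and CBX7 lost theirs on both log2 TPM scales.

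Of the retinoic acid genes, 11 of 18 were tested, with 1 higher and 4 lower (45.5% called, that is 5 genes, against 33.9% over all genes). DHRS3, which turns retinaldehyde back to retinol, had 8.23 and 6.48 CPM untreated and 2.99 and 2.85 CPM after 2-D08 (log2 fold change -1.35 ± 0.23 SE). The receptor genes RARG (-0.70 ± 0.17) and RXRB (-0.64 ± 0.14) were lower and RARA (0.52 ± 0.16) was higher; RARA lost its call in 5 of 14 alternatives, among them the fits without untreated replicate 1, untreated replicate 2 and 2-D08 replicate 1 (log2 fold changes 0.58, 0.47 and 0.32), while RARG lost it without untreated replicate 1 (-0.68). The calls of these 4 genes were lost on both log2 TPM scales. STRA6, a retinol transporter and the remaining lower gene, was under 1 CPM (-2.61) and is named after its value was seen. Among 7 other regulators of HOX genes, 3 were tested and 1 was higher. GMNN (geminin), a replication licensing inhibitor that also binds HOX proteins and Polycomb, had 38.9 and 43.0 CPM untreated and 90.4 and 94.5 CPM after 2-D08 (1.18 ± 0.10), called in all 14 alternatives. The insulator factor CTCF was at -0.02 and NR6A1, a trunk regulator, at -0.55, neither called, and CDX2 and CDX4, activators of central HOX genes in the embryo, had 0 counts in all libraries.

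**Figure D3:**
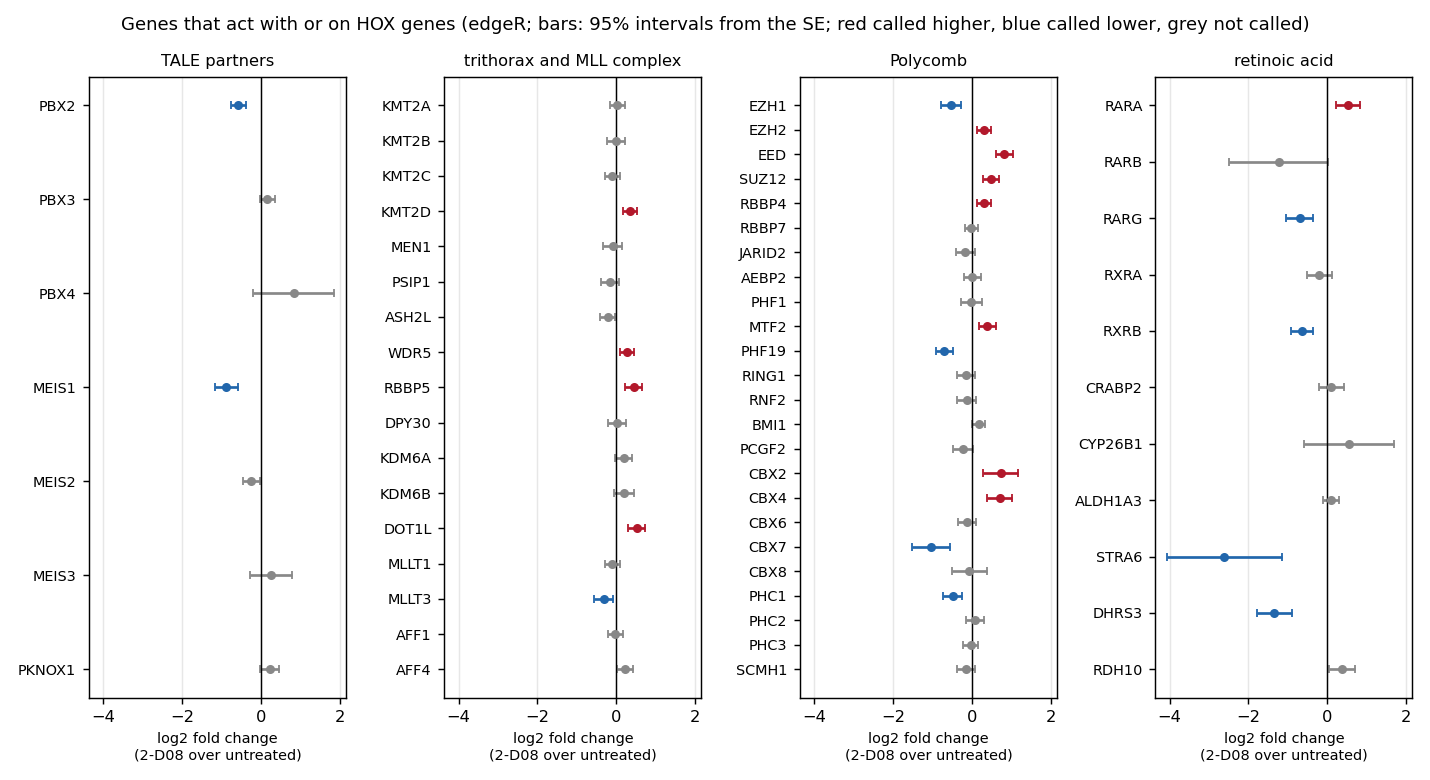
Log2 fold change, 2-D08 over untreated, of tested genes that act with or on HOX genes, one panel per list (edgeR, 2 libraries per group). Bars give a normal 95% interval from the standard error, which is narrower than the edgeR test implies. Red marks genes called higher, blue called lower, grey not called. The partner panel has calls only below 0 (PBX2 and MEIS1), while the Polycomb panel has calls on both sides of 0.

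Of 21 genes in or near the clusters 18 were tested, with 1 higher and 4 lower (27.8% called, against 33.9% over all genes). PRAC1 and PRAC2 lie inside the HOXB cluster, between HOXB9 and HOXB13, and the others lie up to 718.7 kb (SNX10) and, for HNRNPA3, 1021.7 kb outside. Beside HOXA, HIBADH, a mitochondrial enzyme of valine breakdown, fell from 146 and 152 CPM to 68.3 and 69.9 CPM (log2 fold change -1.11 ± 0.09 SE), while SNX10 (-0.29), SKAP2 (0.09) and TAX1BP1 (-0.02) were not called and EVX1 had 1 count in all. Beside HOXB none of 6 was called, at 0.21 for CBX1, 0.16 for SNX11, 0.12 for SKAP1, -0.44 for PRAC2, 1.28 for TTLL6 and -0.18 for CALCOCO2, and PRAC1, next to HOXB13, had 0 counts. Beside HOXC, CALCOCO1 fell from 79.2 and 78.6 CPM to 43.7 and 38.9 CPM (-0.94 ± 0.10), and HNRNPA1 (-0.35 ± 0.09) and ATP5MC2 (-0.36 ± 0.11) were also lower, with SMUG1 (0.02) and CBX5 (-0.06) not called. HNRNPA1 has many near-identical pseudogene copies, so its counts are uncertain, and its call was lost without untreated replicate 1 (-0.40) and without untreated replicate 2 (-0.30). Beside HOXD, LNPK was at 0.27 ± 0.10 and called higher, MTX2 (0.02) and HNRNPA3 (-0.14) were not called, and EVX2 had 2 to 6 counts. HIBADH and CALCOCO1 were called in all 14 alternatives; ATP5MC2 and LNPK lost their calls on both log2 TPM scales (-0.45 on each for ATP5MC2, 0.0776 and 0.0803 for LNPK), LNPK also with DESeq2, and both without untreated replicate 1, untreated replicate 2 or 2-D08 replicate 2 (log2 fold changes -0.34, -0.39 and -0.23 for ATP5MC2 and 0.22, 0.32 and 0.19 for LNPK).

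Homeobox genes outside the clusters gave 3 higher and 2 lower among 14 tested of 34 (35.7% called, near the 33.9% over all genes). HHEX, a factor of liver and blood vessel progenitors, had 8.90 and 9.26 CPM untreated and 20.3 and 20.9 CPM after 2-D08 (log2 fold change 1.19 ± 0.15 SE). MSX1, of limb and craniofacial mesenchyme, was higher (0.81 ± 0.20) while SIX5, of muscle and eye (-0.78 ± 0.19), and PRRX1, of limb mesenchyme (-0.35 ± 0.10), were lower. SIX4 (0.33, higher) is named after its value was seen. HHEX was called in all 14 alternatives, while MSX1, SIX5 and PRRX1 lost their calls on both log2 TPM scales and without untreated replicate 1 (0.77, -0.75 and -0.36), and PRRX1 also without untreated replicate 2 (-0.35). None of the 16 noncoding RNAs of the HOX clusters that were looked up by symbol is a row of the count table used here.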

How the data were processed

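RNA libraries of 4 SK-LMS-1 samples (2 untreated, 2 with 2-D08 at 50 µM for 48 h) were compared. The tables used were the authors' deposited read counts per gene and the authors' deposited TPM per gene. Trimming with cutadapt 3.4, alignment with STAR 2.7.8a, DESeq2 and build GRCh38 are named in the submitters' processing notes; the counting program, its strand setting and the handling of reads with several matches are not known from the sources at hand. Another deposited table was not used.

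Members were found by symbol, and the members and the other gene lists were chosen with earlier results of these data known. Counts were tested with edgeR 4.0.16 (R 4.3.3): filterByExpr with a minimum count of 10, TMM scaling, the robust quasi-likelihood test without a replicate block, and Benjamini-Hochberg adjustment over 12906 genes, called at adjusted p under 0.05. CPM are counts scaled by library size and TMM factor; SE were taken from the F statistic. HOX genes below the filter are given as counts alone. Library totals (14796702 to 31300635 counts) limit the precision of genes under about 1 CPM.

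Named in full are the HOX genes called and the 2 with the highest mean TPM in each cluster; of the other lists up to 4 with the smallest p at a mean of 1 CPM or more, and all TALE partners and neighbours. A few other genes at 0 counts are named for their absence. Alternatives were RLE factors, no scaling factor, no low-count filter, a minimum mean of 5 CPM, DESeq2 1.42.0, limma 3.58.1 (voom, and log2 of TPM + 1 or + 0.1), halved even counts, a replicate block, and leaving out each library; in the last case the lone library of a group is assumed to vary like the other group. Positions and exon overlaps are from GENCODE 29, where 18821 of 19381 symbols and all 39 HOX genes matched; promoters are from RefSeq (GRCh38.p14). Replicate numbers are shared between groups but the labels do not say that a number marks a common batch or day. Some items are not reported here; those in the other lists are also left out of the counts over these lists.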

Additional observations from a re-analysis of the deposited data

How the results depend on the processing

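HOXA13, HOXB13 and HOXC4 were called lower wherever they were tested (HOXC4 had too few reads at a mean of 5 CPM). The number of HOX genes called higher was 2 in the report. It was 1 at a mean of 5 CPM, where HOXD13 had too few reads to be tested, and 1 with DESeq2. On the log2(TPM + 1) and log2(TPM + 0.1) scales it was 0, with 1598 and 1608 of all genes called. Leaving out 1 library gave 0 to 3 HOX genes higher, 3 to 6 lower, and 1866 to 6077 of all genes. With the replicate number as a block, which the labels do not say marks pairs (correlation of same-numbered deviations 0.21 over all genes tested and 0.40 over the 10502 with a mean of 5 CPM or more), 6239 genes were called and HOX calls were 2 higher and 6 lower, with HOXA11 (-0.23) and HOXC10 (-0.61) added. Over the 31 HOX genes, 378 of 420 alternative values kept their sign and their side of the threshold, 15 lost the call, 6 gained it and 21 changed sign, in 9 genes of which none was called. The sign changes were 0.00129 (library size only) and 0.00500 (halved counts) for HOXA3, and -0.0155 for SMUG1 with limma-voom. On the 2 TPM scales they were -0.27 and -0.30 for HOXA5, -0.0276 and -0.0291 for HOXB4, 0.0311 and 0.0331 for HOXB6, -8.54e-05 and -0.000487 for HOXC9, -0.0342 and -0.0347 for PBX3, -0.38 and -0.40 for SMUG1, -0.0356 and -0.0362 for MTX2. Values that changed sign when 1 library was left out ranged over -0.75 to 0.00487 (HOXA2), -0.14 to 0.15 (HOXA3), -0.0388 to 0.0973 (HOXB4), -0.44 to 0.074 (HOXB5), -0.13 to 0.0816 (HOXB6), -0.71 to 0.13 (HOXD4), -0.34 to 0.27 (HOXD11), -0.0664 to 0.46 (MEIS3), -0.0383 to 0.19 (SKAP2), -0.23 to 0.16 (TAX1BP1), -0.0994 to 0.40 (SNX11), -0.0528 to 0.23 (SKAP1), -1.62 to 0.49 (PRAC2), -0.19 to 0.22 (SMUG1), -0.19 to 0.0416 (CBX5), -0.0727 to 0.10 (MTX2), -0.12 to 0.0574 (CTCF). The cause was not tested. Depth limits the genes under about 1 CPM, including HOXC4 after 2-D08 and the 8 untested HOX genes.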
